A study of Mus musculus with 6 samples.

Results

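Crabp1 and 8 further genes that bind, make, break down or sense retinoic acid were followed across 6 RNA sequencing libraries of immortalized mouse embryonic fibroblasts (MEFs). The 9 genes, Crabp1, Crabp2, Aldh1a1, Aldh1a2, Aldh1a3, Cyp26b1, Rara, Rarb and Rarg, were taken by symbol from the 26231 genes of the deposited table, and each had a row. They were picked with the differences between the lines in these same data in view, so those differences between the lines are given as descriptions with no test. Of the 9, 6 had at least 1 RPKM (reads per kilobase of exon, relative to the depth of the library) in at least 3 libraries, and 3 (Aldh1a2, Aldh1a3 and Rarb) lay under that filter.

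The study asked what loss of Nf2, which encodes the tumor suppressor Merlin, does to the transcriptome of fibroblasts. Cells of FVB embryos of about 14 days carrying Nf2 alleles flanked by loxP sites (Nf2fl/fl) were immortalized with a lentivirus for the SV40 large T antigen, and then received either a control lentivirus with CMV-GFP or a lentivirus with CMV-Cre and GFP. The labels name the first line MEF WT (control) and the second MEF Nf2 KO, each with 3 libraries, and both lines grew in medium with fetal bovine serum and spent 24 h without serum before RNA was taken. Each genotype was thus 1 transduced line. The labels number the libraries of each line 1 to 3 and mark them A, B and 2018 in both lines, and nothing says that they came from separate cultures, so that p-values measure the spread between these samples, which may be technical.

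Nf2 itself ran from 13.1 to 14.3 RPKM in the MEF WT libraries and from 12.9 to 15.4 RPKM in those labelled MEF Nf2 KO (log2 difference 0.03 ± 0.10 SE, limma adjusted p = 0.988). This whole-gene value does not resolve the exons between the loxP sites, and it did not separate the lines. All directions below therefore follow the labels, and the second group is called the KO-labelled libraries. Depth was estimated from the steps of the values at 13453481 to 61187194 reads per MEF WT library and 18071533 to 73052467 per KO-labelled library, replicate 3 being the deepest in both lines. Of the 10 fibroblast markers listed, 9 passed the filter, while the muscle, neural and endothelial markers summed to at most 0.545, 2.56 and 4.45 RPKM, and the defining macrophage genes Ptprc and Adgre1 and the epithelial gene Epcam stayed near 0 in every library. The summed macrophage markers were 9.20 to 11.98 RPKM in MEF WT and 7.53 to 9.41 in the KO-labelled libraries, mostly from Cd68 (5.08 to 8.10 RPKM) and Cd14 (1.49 to 3.59). The summed epithelial markers were 21.9 to 39.8 and 10.9 to 27.9 RPKM, nearly all from Krt19 (10.4 to 39.5 RPKM).

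Retinoic acid is made from vitamin A inside the cell. Retinol is oxidized to retinal by retinol dehydrogenases and retinal to retinoic acid by the ALDH1A enzymes, after which CYP26 enzymes break it down. Small cytosolic proteins, CRABP1 and CRABP2, hold the acid in solution, and it acts through the nuclear receptors RAR, which sit on DNA in pairs with RXR and switch target genes on when the ligand is bound. In the embryo this pathway patterns the hindbrain, limbs and neural crest, and Crabp1 is a known marker of several mesenchymal and neural crest derived populations there.

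Crabp1, the binding protein thought to buffer retinoic acid and to pass it to CYP26 enzymes, was abundant in MEF WT and nearly lost from the KO-labelled line. Its level was 104, 65.9 and 141 RPKM in MEF WT replicates 1, 2 and 3. In the KO-labelled replicates it was 1.72, 0.84 and 5.02 RPKM. Every KO-labelled library lay far below every MEF WT library. The means were 104 ± 37.3 RPKM and 2.53 ± 2.20 RPKM (SD, n = 3 each), a ratio of 41.0 in favor of MEF WT. On the log2(RPKM + 1) scale the difference was -5.01 ± 0.47 (SE), which ranked first by size among all 11067 genes tested. Within the replicate numbers the gene was 60.6-fold, 78.4-fold and 28.0-fold lower in the KO-labelled library. Among all genes in the table Crabp1 ranked 375, 621 and 277 by level in MEF WT and 10048, 10946 and 6977 in the KO-labelled libraries. About 25 and 13 reads stood behind the values of KO-labelled replicates 1 and 2 and about 294 behind replicate 3, so the ratios within the first 2 numbers rest on few reads. In bulk RNA, fewer cells with the transcript and less of it per cell cannot be told apart.

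**Figure D1:**
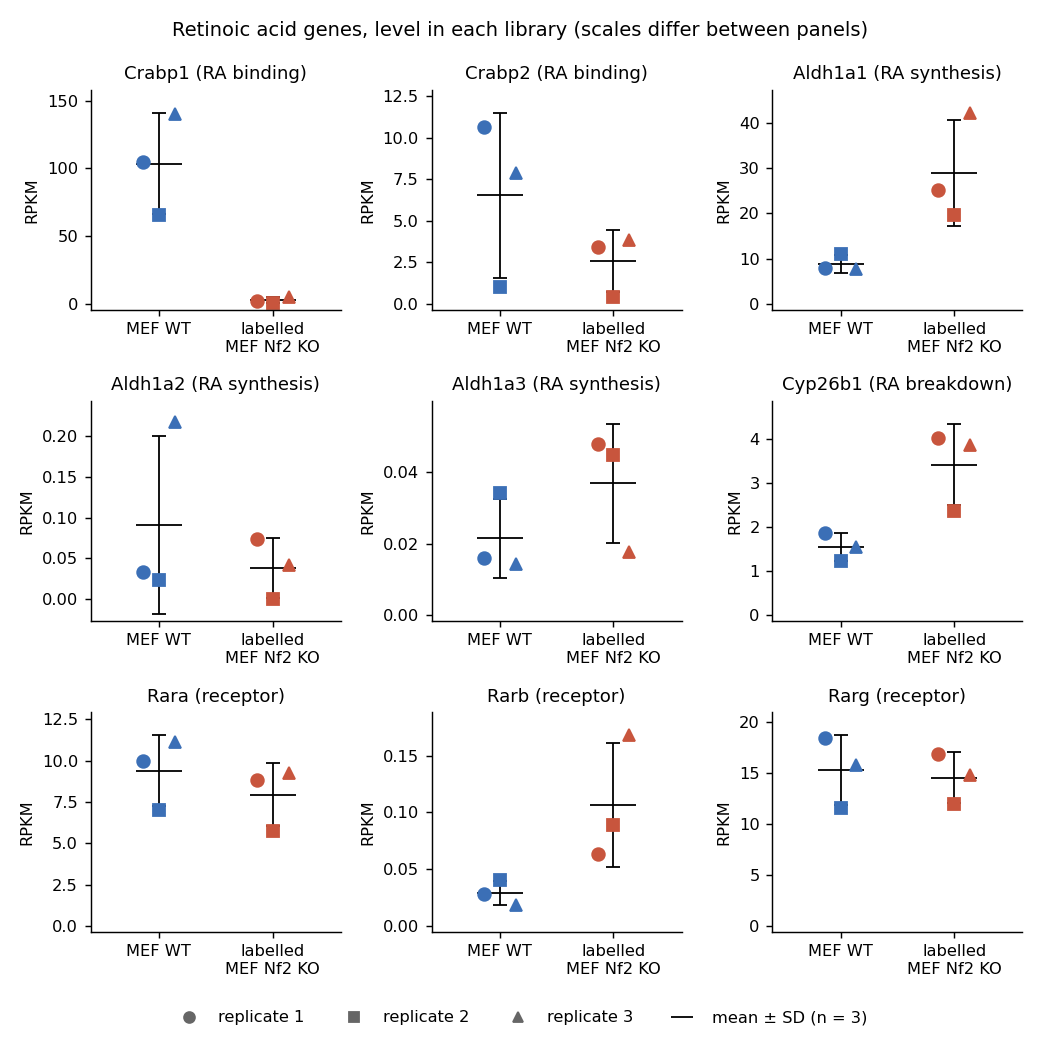
RPKM of the 9 retinoic acid genes in each library, MEF WT in blue and the KO-labelled line in red, with 1 panel per gene and its own scale. Marker shapes stand for the replicate numbers, and horizontal bars with whiskers give the mean ± SD (n = 3). Crabp1 falls from at least 65.9 RPKM to at most 5.02 RPKM, Aldh1a1 and Cyp26b1 lie higher in all KO-labelled libraries, and Aldh1a2, Aldh1a3 and Rarb stay under 0.22 RPKM.

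Crabp1 (ENSMUSG00000032291) lies on the plus strand at chr9:54764748-54773110 (GENCODE vM21, GRCm38), overlaps no other annotated gene, and shares none of its 772 stretches of 31 bases with other genes. The 250 bases before its start site are printed because this gene carries the largest difference (RefSeq, GRCm38.p6, chr9:54764498-54764747, plus strand). Capitals mark GC boxes (GGGCGG or its reverse complement) and a match to GGAATG, the core bound by TEAD factors:
Crabp1: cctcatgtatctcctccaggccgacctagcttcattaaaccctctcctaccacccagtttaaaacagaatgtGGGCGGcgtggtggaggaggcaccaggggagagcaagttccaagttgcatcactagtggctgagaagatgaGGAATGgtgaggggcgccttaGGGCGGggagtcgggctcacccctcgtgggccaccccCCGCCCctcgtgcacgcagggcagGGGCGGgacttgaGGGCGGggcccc
The window is 63.6% G and C, with 12 CpG dinucleotides, 5 GC boxes and 1 GGAATG, at position -107 from the start site. Receptors of the RAR kind read 4 related half-sites on either strand, the canonical AGGTCA, then AGTTCA with a changed middle, GGGTCA with a changed start and GGTTCA with both, and the window held none of them. Of 32851 windows of the same length in the table, 32.7% held a GC box, 12.6% a GGAATG and 38.6% a half-site, so these letters are common. The tested genes around Crabp1 had much smaller log2 differences than Crabp1. Wdr61, the nearest tested gene before it at 30.2 kb, had a log2 difference of -0.05 ± 0.14 (SE), and Ireb2, the nearest after it at 90.7 kb, of 0.21 ± 0.11. The log2 differences of the 10 tested genes within 500 kb ran from -0.73 to 0.21. Of these 10, 0 passed the limma threshold of an adjusted p of 0.05, where 1.06% of all genes did. With the replicate number as a block 0 passed, where 7.53% did, and 0 had an unadjusted p under 0.05, where 1097 of 11067 did. So few genes leave these counts of 0 close to those shares.

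Crabp2, the carrier that delivers retinoic acid to the receptors in the nucleus, was lower in the KO-labelled library of each number, but the lines overlapped. It stood at 10.7, 1.04 and 7.89 RPKM in MEF WT and at 3.43, 0.431 and 3.86 RPKM in the KO-labelled replicates. Replicate 2 was by far the lowest library in both lines, and MEF WT replicate 2 fell below 2 of the KO-labelled libraries. The log2 difference was -0.93 ± 0.75 (SE), and within the numbers it was -1.40, -0.51 and -0.87. With Crabp1 down and Crabp2 still present, the makeup of the pair differed between the lines. Crabp1 gave 94.6% ± 3.86 (SD) of their summed RPKM in MEF WT and 52.0% ± 16.8 in the KO-labelled line (n = 3 each). That sum itself ran from 66.9 to 148 RPKM in MEF WT and from 1.27 to 8.88 RPKM in the KO-labelled libraries.

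Aldh1a1, which oxidizes retinal to retinoic acid, had the highest RPKM of the 3 ALDH1A members in every library, and it was higher in every KO-labelled library than in any MEF WT library. MEF WT held 7.86, 11.0 and 7.60 RPKM. The KO-labelled replicates held 25.1, 19.6 and 42.2 RPKM. The lines did not overlap, and the means were 8.83 ± 1.92 and 29.0 ± 11.8 RPKM (SD, n = 3 each). The ratio of the means was 3.28, the log2 difference 1.55 ± 0.28 (SE), and the ratios within the numbers were 3.19, 1.78 and 5.55. Aldh1a1 made up 97.1% to 99.9% of the summed RPKM of Aldh1a1, Aldh1a2 and Aldh1a3 in all 6 libraries. Of its 31-base stretches 5.70% recur in other genes, most of them in its neighbor Aldh1a7, so reads of the pair could be split in part. Aldh1a7, an aldehyde dehydrogenase 49.5 kb after it, had 11.8 ± 3.28 RPKM in MEF WT and 8.81 ± 3.34 in the KO-labelled line (log2 difference -0.41 ± 0.30 SE, limma adjusted p = 0.820), so it did not follow Aldh1a1.

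The inner of the 2 start sites listed for Aldh1a1 is shown, since the sequence after it was found in the GENCODE transcripts of the gene and that after the outer start was not. Its 250 upstream bases (RefSeq, GRCm38.p6, chr19:20601718-20601967, plus strand) carry 1 half-site match, in capitals, on the reverse strand at -49:
Aldh1a1: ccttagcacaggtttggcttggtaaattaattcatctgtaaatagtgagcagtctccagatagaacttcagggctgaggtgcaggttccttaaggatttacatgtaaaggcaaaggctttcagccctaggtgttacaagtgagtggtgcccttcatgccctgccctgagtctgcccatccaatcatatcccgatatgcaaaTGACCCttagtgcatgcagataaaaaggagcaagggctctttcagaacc
Unlike the Crabp1 window this one is 46.4% G and C and holds 1 CpG and no GC box. The outer window (chr19:20492333-20492582, plus strand) holds no half-site and no GC box, and 1 match to GGAATG on the reverse strand, at -168.

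Aldh1a2, the main retinaldehyde dehydrogenase of the early embryo, and Aldh1a3 were near the limit of detection. Aldh1a2 ran from 0.0233 to 0.216 RPKM in MEF WT and from 0 to 0.0733 RPKM in the KO-labelled libraries. At most 30 estimated reads stood behind any of these values, and the lines overlapped. Aldh1a3 stayed between 0.0141 and 0.0479 RPKM over all 6 libraries, on 1 to 6 estimated reads.

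Cyp26b1, which hydroxylates retinoic acid and so ends its action, was also higher in each KO-labelled library. Its levels were 1.86, 1.23 and 1.54 RPKM in MEF WT and 4.02, 2.35 and 3.85 RPKM in the KO-labelled replicates, with no overlap. The means were 1.54 ± 0.314 and 3.41 ± 0.917 RPKM (SD, n = 3 each), a ratio of 2.21, and the log2 difference was 0.78 ± 0.19 (SE). Within the numbers the ratios were 2.16, 1.91 and 2.50. Cyp26b1 gave at least 95.4% of the summed RPKM of the CYP26 genes, Cyp26a1 and Cyp26c1 being at or below 0.162 RPKM. Both the enzyme of synthesis and the enzyme of breakdown thus lay higher in the KO-labelled line, and the ratio of Aldh1a1 to Cyp26b1 RPKM overlapped between the lines, from 4.23 to 8.96 in MEF WT and from 6.24 to 10.9 in the KO-labelled libraries.

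The receptors differed little between the lines. Rara, the most widely expressed RAR, stood at 10.0, 6.99 and 11.2 RPKM in MEF WT and at 8.83, 5.75 and 9.28 RPKM in the KO-labelled replicates. The lines overlapped, and the log2 difference was -0.22 ± 0.22 (SE). Rarg, the RAR typical of mesenchyme and skin, had 18.4, 11.6 and 15.9 RPKM against 16.9, 11.99 and 14.8 RPKM, a log2 difference of -0.05 ± 0.19 (SE) whose sign differed between the numbers. Rarg was the higher of the pair in every library, at 1.42 to 2.08 times the RPKM of Rara. Rarb, a receptor gene that retinoic acid itself induces in many cells, was barely detected. Its level was 0.0282, 0.0402 and 0.0187 RPKM in MEF WT and 0.0633, 0.0894 and 0.168 RPKM in the KO-labelled replicates, on about 2 to 6 and about 6 to 64.6 reads. The lines did not overlap, but Rarb shares its locus with Top2b and with an antisense transcript on the opposite strand, and without stated strand use the reads of overlapping genes cannot be told apart.

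Rarb is the classic carrier of a retinoic acid response element, a direct repeat of 2 half-sites with 5 bases between them, and its upstream window shows how such an element looks (RefSeq, GRCm38.p6, chr14:16575477-16575726, minus strand). Capitals mark the half-sites:
Rarb: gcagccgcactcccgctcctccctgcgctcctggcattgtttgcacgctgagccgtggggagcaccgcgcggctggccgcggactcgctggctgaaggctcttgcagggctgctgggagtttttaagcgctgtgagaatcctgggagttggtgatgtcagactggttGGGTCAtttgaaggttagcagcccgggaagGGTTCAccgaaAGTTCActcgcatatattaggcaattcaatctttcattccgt
The repeat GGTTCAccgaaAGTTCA spans -53 to -37 from the start site, and a further half-site, GGGTCA, begins at -83. Direct repeats of any of the 4 half-sites with this spacing, searched on both strands and made of the same half-sites counted alone, occurred in 29 of 32851 windows (0.0883%). Among the 7 members with a window in the table, which were all but Crabp2 and Aldh1a3, Rarb was the one that held it. The match is a description of the sequence and says nothing about binding in these cells.

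**Figure D2:**
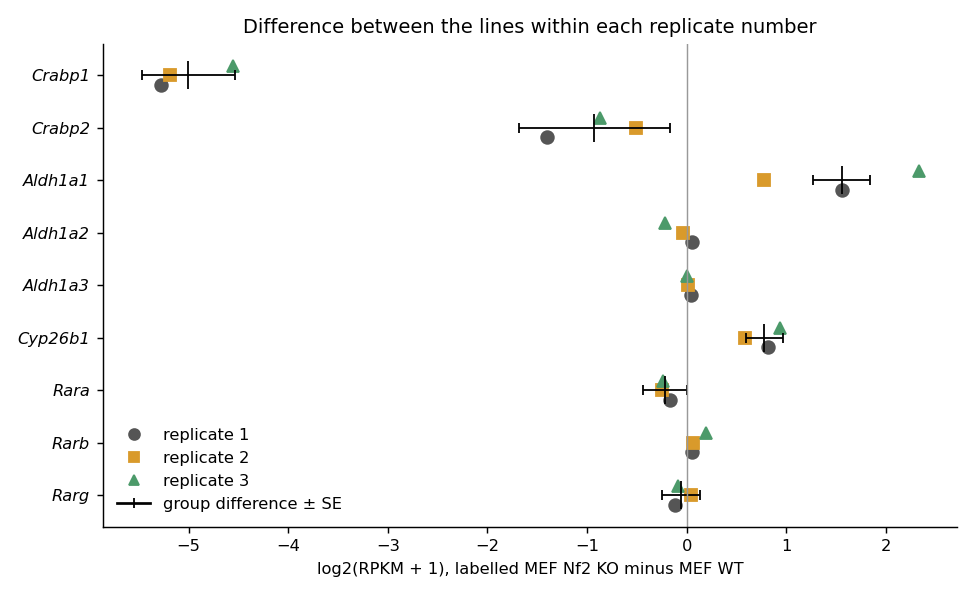
Difference in log2(RPKM + 1) between the KO-labelled and the MEF WT library of the same replicate number, for each of the 9 genes (points), with the difference of the line means ± SE (black bars) for the 6 genes past the filter. Crabp1 lies between -5.28 and -4.56, Aldh1a1 and Cyp26b1 lie above 0 in all 3 numbers, and Rarg falls on both sides of 0.

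Across the 6 genes past the filter, 3 had lines that did not overlap, 2 of them higher (Aldh1a1 and Cyp26b1) and 1 lower (Crabp1) in the KO-labelled libraries. Such separation was found for 15.1% of the whole table past the filter, 7.6% higher and 7.52% lower. For 5 of the 6 the sign was the same in all 3 numbers, against 46.9% of all genes. At the limma threshold 1 of the 6 (Crabp1) was counted, where 1.06% of all genes were, and 4 were once the number entered the fit as a block (Crabp1 and Crabp2 lower, Aldh1a1 and Cyp26b1 higher), where 7.53% of all genes were. Since this contrast chose the genes, nothing is read from these counts.

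The difference between replicate numbers, taken over both lines, is a separate contrast from the line difference in view when the genes were chosen. Earlier results of these data were known by then, so its independence of that choice is not established. Of the 6 genes, 4 differed between the numbers across both lines (limma F test, adjusted p under 0.05), where 21.2% of all genes did. The 4 were Crabp2 (limma adjusted p = 0.00892), Rara (0.0134), Crabp1 (0.0190) and Rarg (0.0214). In each of them replicate 2 was the lowest library of both lines. By the same test 13.9% of all genes had their lowest mean over the lines in replicate 2, and 7.01% their highest. Crabp2 moved most, replicate 2 lying 8.95-fold below the mean of replicates 1 and 3 in MEF WT and 8.45-fold below it in the KO-labelled line, on about 26 and 11 reads in those replicate 2 libraries. Crabp1 was 1.86-fold and 4.01-fold lower in replicate 2, Rara 1.51-fold and 1.58-fold, and Rarg 1.48-fold and 1.33-fold. Cyp26b1 had the same order in replicate 2 but did not pass (limma adjusted p = 0.0605), and Aldh1a1 did not either (0.671), its replicate 2 being the highest of MEF WT and the lowest of the KO-labelled line. Leaving out either replicate 2 library leaves that number a lone library, so such fits are not used to judge these calls. How the calls changed with the filter and the marks is given below.

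**Figure D3:**
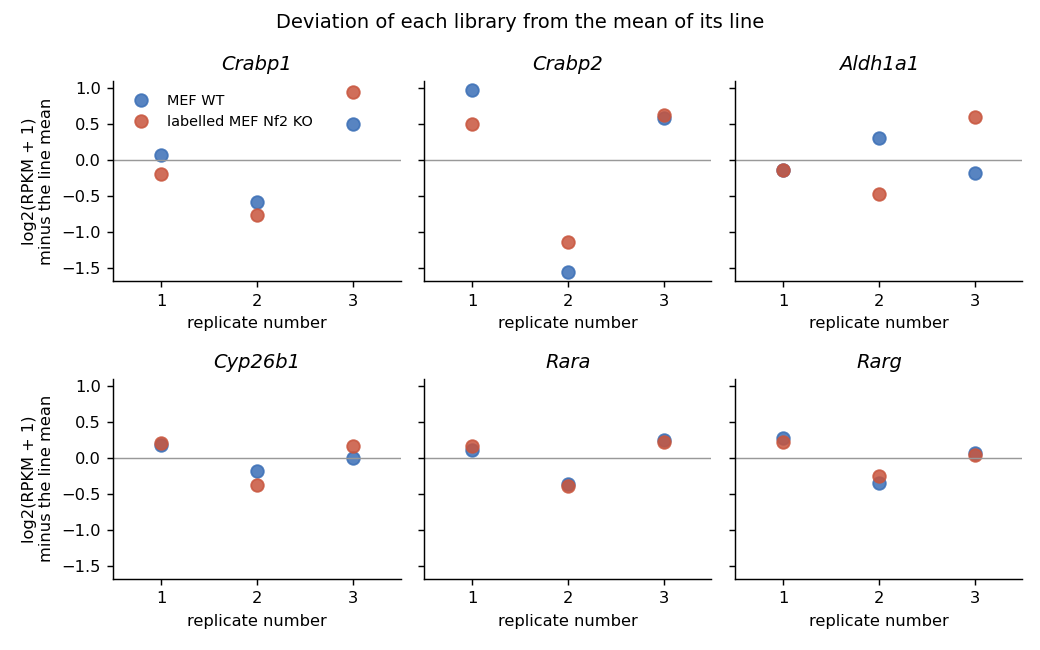
Deviation of each library from the mean of its own line on the log2(RPKM + 1) scale, by replicate number, for the 6 genes past the filter (MEF WT in blue, KO-labelled in red). Replicate 2 lies below 0 in both lines for Crabp1, Crabp2, Cyp26b1, Rara and Rarg, while for Aldh1a1 the lines deviate in opposite directions in replicates 2 and 3 and in the same direction in replicate 1.

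Besides the 9 genes, 64 listed genes of retinoid carriage, interconversion, breakdown, receptor function or response had a row, and 36 passed the filter. Of these 36, 1 was higher (Tgm2) and 1 lower (Pdgfra) in the KO-labelled line with limma, against 0.479% and 0.578% of all genes, and 8 had an unadjusted p under 0.05, where 1097 of the 11067 genes did. With the replicate number as a block, 4 were higher and 4 lower, against 2.99% and 4.54% of all genes. The lists were chosen with earlier results of these data known, and Pdgfra met the filter through MEF WT. Nothing is therefore read from these counts or from the p-values of single list genes below. The median log2 difference of the 36 was -0.04 and the median size 0.11, beside -0.01 and 0.10 over all genes tested.

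Tgm2, a transglutaminase long used as a retinoic acid response gene, was at 3.16, 4.14 and 2.81 RPKM in MEF WT and at 19.9, 9.59 and 24.3 RPKM in the KO-labelled replicates. It rose 5.31-fold between the means, without overlap (log2 difference 2.03 ± 0.32 SE, limma adjusted p = 0.0478, and 0.0247 with the block). Pdgfra, a growth factor receptor of mesenchymal cells and a retinoic acid response gene in some cells, was at 12.3, 5.22 and 11.7 RPKM in MEF WT and at 1.42, 0.657 and 0.962 RPKM in the KO-labelled replicates. It fell by 2.35 ± 0.31 (SE) on the log2 scale (limma adjusted p = 0.0329, and 0.00366 with the block). KO-labelled replicates 2 and 3 lay under 1 RPKM, so Pdgfra met the filter through MEF WT and nothing is read from its test. Both genes stood on the same list of response genes and moved in opposite directions. Over the alternatives run the adjusted p ran from 0.000306 to 0.634 for Tgm2 and from 0.000324 to 0.512 for Pdgfra. The count of 2 became 0 without replicate 1 or 3 of either line, with 7 or 8 at an unadjusted p under 0.05. In those fits 10 to 18 of all genes passed, where 117 did in the main fit. Without MEF WT replicate 2 Pdgfra alone remained, and without KO-labelled replicate 2 Tgm2 alone (count 1 in each case). Pdgfra is also a fibroblast marker, and the matrix gene Fn1 of that list was lower as well, at 475 ± 17.9 against 305 ± 9.43 RPKM (limma adjusted p = 0.0390). Dcn, also on that list, had 2.73 ± 1.21 against 0.0906 ± 0.0563 RPKM, and since it passed the filter through MEF WT alone its test is not used. The summed fibroblast markers ran from 1855 to 2554 RPKM in MEF WT and from 1444 to 1876 RPKM in the KO-labelled libraries. Their part in the Crabp1 and Pdgfra differences was not tested.

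Among the carriers of retinol and fatty acids, 7 genes had a row and Fabp5 was higher with the block alone. Fabp5, a fatty acid carrier that also binds retinoic acid, was at 19.2, 22.5 and 18.4 RPKM in MEF WT and at 29.9, 37.4 and 50.6 RPKM in the KO-labelled replicates. The lines did not overlap, and its log2 difference was 0.91 ± 0.19 (SE). Fabp3, another tested gene of the wider family of intracellular lipid-binding proteins, had 4.06 ± 0.547 RPKM in MEF WT and 2.21 ± 1.00 in the KO-labelled line (limma adjusted p = 0.388). Rbp2, Rbp4, Rbp7, Stra6 and Stra6l were at most 0.154 RPKM in any library.

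In the step between retinol and retinal, 6 of 13 genes with a row passed the filter and 0 passed the limma threshold without the block, 1 of them having an unadjusted p under 0.05. Adh5 and Rdh11 were the most abundant, at 18.03 ± 3.05 and 13.1 ± 1.71 RPKM in MEF WT and 18.4 ± 1.21 and 13.3 ± 3.08 in the KO-labelled line. Rdh10, the dehydrogenase that the embryo needs for retinal, had 2.44 ± 0.291 RPKM in MEF WT and 2.0 ± 0.218 in the KO-labelled line. Dhrs4, a retinal reductase, had 8.62 ± 0.272 and 6.60 ± 0.590 RPKM and was lower with the block. Dgat1, which can esterify retinol, was level at 6.17 ± 0.404 and 6.25 ± 0.368 RPKM. Cyp1b1, a cytochrome that can oxidize retinol and retinal, was at 38.9, 30.7 and 42.8 RPKM in MEF WT and at 63.1, 39.9 and 61.1 RPKM in the KO-labelled replicates. It overlapped between the lines through its low replicate 2, had a log2 difference of 0.52 ± 0.21 (SE) and was higher with the block.

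All 12 receptor partners and cofactors with a row passed the filter, and 0 passed the limma threshold with or without the block, or an unadjusted p of 0.05. Rxra had 17.5 ± 3.502 RPKM in MEF WT and 13.9 ± 2.32 in the KO-labelled line, and Rxrb 11.3 ± 0.757 and 10.8 ± 1.32. Rxra gave 53.2% to 62.6% of their summed RPKM. The corepressor Ncor1 had a log2 difference of 0.06 ± 0.09 (SE), and the mediator subunit Med1 one of -0.01 ± 0.08.

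Of the retinoic acid response genes, 15 of 24 with a row passed the filter. Besides Tgm2 and Pdgfra, the nuclear receptor genes Nr2f1 and Nr2f2 were lower with the block alone. Nr2f2 was at 5.66, 6.86 and 6.30 RPKM in MEF WT and at 3.54, 4.33 and 3.51 RPKM in the KO-labelled replicates, and Nr2f1 at 4.30, 2.55 and 4.08 against 2.04, 0.886 and 1.92 RPKM, both without overlap. Btg2 and the homeobox genes Hoxb4 and Hoxb5, the most abundant others, had log2 differences of -0.11 ± 0.14, -0.16 ± 0.31 and 0.10 ± 0.21 (SE). The genes Fabp5, Cyp1b1, Dhrs4, Nr2f1 and Nr2f2, called with the block alone, had limma adjusted p values from 0.0817 to 0.476 without it and from 0.00544 to 0.0429 with it, and from 0.00544 to 1.00 over all alternatives. Of the 36 genes 9 differed between the replicate numbers, Cyp1b1, Rxra and Hoxb4 among them, where 21.2% of all genes did.

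**Figure D4:**
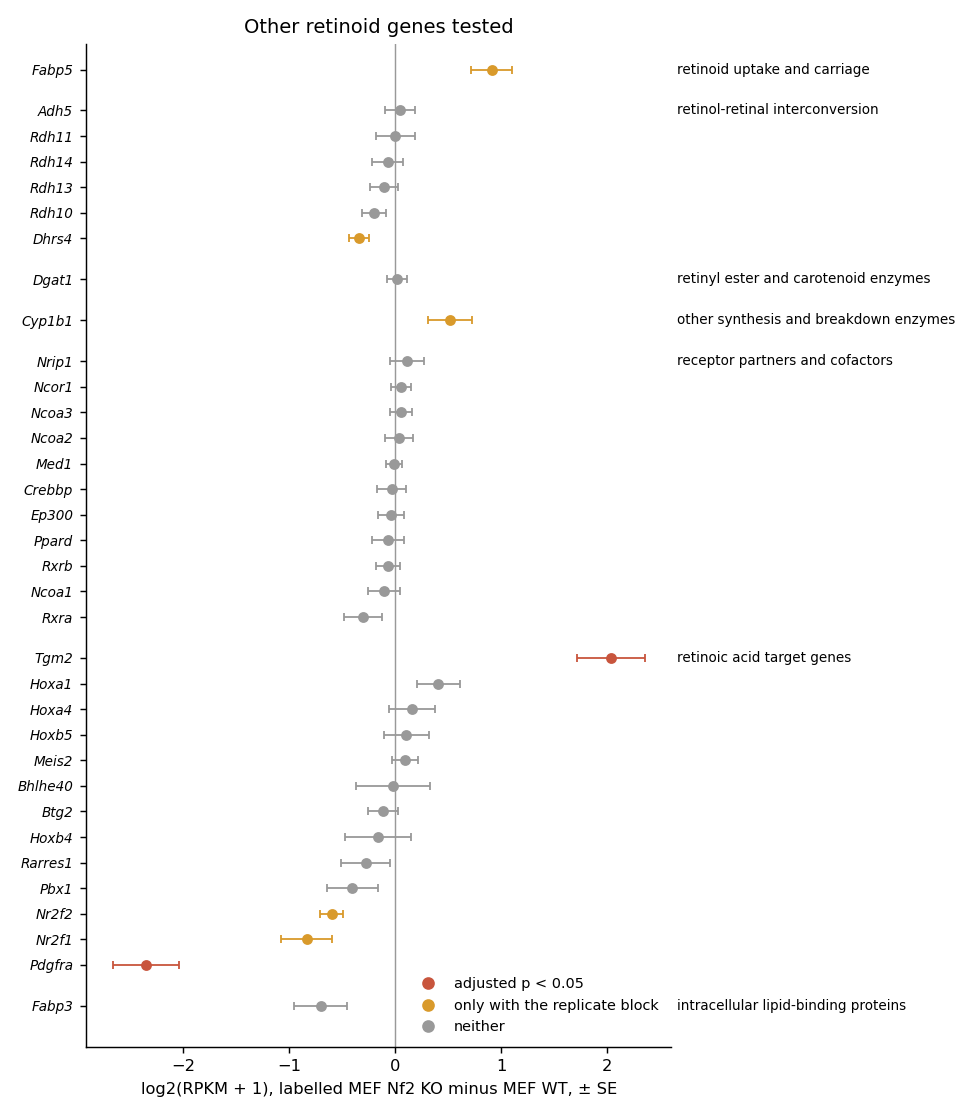
Difference in log2(RPKM + 1), KO-labelled minus MEF WT, ± SE, for 34 of the 36 other retinoid genes past the filter, grouped by role. Red points passed the limma threshold (Tgm2 at 2.03 and Pdgfra at -2.35), orange points passed only with the replicate number as a block, and gray points passed neither way, with the receptor partners between -0.30 and 0.11.

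The genes whose level followed Crabp1 most closely over the 6 libraries, ranked by Pearson correlation of log2(RPKM + 1) among 11066 other genes, were Dtnb, Mb21d2, S100a4, Tgfb1 and Pak1 (r from 0.995 to 0.997). S100a4, a calcium-binding protein of motile fibroblasts, was at 723, 612 and 718 RPKM in MEF WT and at 271, 256 and 365 RPKM in the KO-labelled replicates. Tgfb1, the growth factor, was at 5.36, 5.10 and 6.40 against 2.09, 1.61 and 2.53 RPKM. The most opposed genes were Casc4, 2010111I01Rik, Recql, Sub1 and Rprd1b (r from -0.997 to -0.988). All 6 points fall into 2 lines, so these values mostly carry the gap between the lines, and 103 genes had r over 0.95 and 83 under -0.95. On the deviations from the line means, which drop that gap, Gm4149, Ndufa10, Mrpl34, Tmed10 and Ndufa2 came first. Among the retinoic acid genes Rara (r = 0.861) and Crabp2 (0.764) were the nearest to Crabp1 on that measure, which the replicate numbers shared by the lines enter.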

How the data were processed

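Total RNA of 3 MEF WT and 3 MEF Nf2 KO libraries was prepared, sequenced and analyzed by GENEWIZ for the authors, who deposited 1 table with 1 value per gene and library. The submitters' processing notes name the build mm10, and the aligner and counting tool are not given in the sources used here. The deposited unit is not stated either, and was taken as RPKM from the values. After multiplication by exon length (GENCODE vM21, 26033 of 26231 genes), 83.3% to 85.2% of values of up to 20 reads were whole within 0.05 of a read, where 10% would be by chance, and the step gave the estimated reads per library. Depth is therefore an estimate.

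Values were set to log2(RPKM + 1), so that folds of low genes are understated. Those 11067 that reached 1 RPKM in 3 or more libraries were fitted with limma 3.58.1 in R 4.3.3 (trend and robust settings, two-sided, Benjamini-Hochberg over all genes tested, threshold 0.05), without covariates for the lines and with line as a term for the replicate number. Libraries sharing a number deviated together from their lines (Pearson correlation over genes of 0.552, 0.819 and 0.516 for numbers 1, 2 and 3), so numbers count as pairs here, and blocked values are given where a call changed. The fits were tested on simulated data. Promoter windows came from RefSeq (GRCm38.p6), and figures were drawn with matplotlib 3.10.9.

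The members and all gene lists were chosen with earlier results of these data known. Named are every member, Nf2, list genes past the threshold with up to 4 of the most abundant others per list, the 5 genes most and least like Crabp1, the 5 most like it within lines, and the neighbors of members. Fibroblast markers past the threshold, genes past it with the block alone, Rdh10, Fabp3 and low list genes were named after their values were seen. Protein sequences were not used here, and some listed genes are counted but not reported singly here.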

Additional observations from a re-analysis of the deposited data

How the results depend on the processing

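The log2 difference of Crabp1 kept its sign under every alternative run, from -5.59 with a pseudocount of 0.1 to -4.63 without KO-labelled replicate 2 (-5.48 to -4.63 over the libraries and numbers left out). Since the lines did not overlap for Crabp1, Aldh1a1 and Cyp26b1, leaving libraries out could not change their signs, and only the sizes are informative. Of the other members past the filter, Aldh1a1 (1.17 to 1.94), Cyp26b1 (0.67 to 1.07), Crabp2 (-1.70 to -0.36) and Rara (-0.39 to -0.02) kept their sign, and Rarg (-0.23 to 0.08) did not, being above 0 without MEF WT replicate 1 (0.08) or KO-labelled replicate 2 (0.07). Of the 36 other retinoid genes, 2 passed the limma threshold, where 117 of all genes did. The count was 8 with the replicate block (833 of all genes) and 1 with a filter of a mean of 5 RPKM (39 of all genes). It was 0 of 64 without a filter (9 of all genes), where 12 had an unadjusted p under 0.05. The count ran from 0 to 6 with a library or a replicate number left out. It was 6 without replicate 2 of both lines (484 of all genes) and 0 without number 1 or number 3 (0 of all genes in each). Without number 1 and number 3, 8 and 4 had an unadjusted p under 0.05 (limma). The count of 4 members that differed between replicate numbers, where 2347 of all genes did, became 0 without a filter (5 at an unadjusted p under 0.05). It was also 0 when the 2018 mark was set against A and B (1 at an unadjusted p under 0.05). In both settings 0 of all genes passed. The cause of these changes was not tested. With all 6 libraries kept, the adjusted p of this test ran over the alternatives from 0.00434 to 0.890 for Crabp2 and from 0.00922 to 0.890 for Rara. It ran from 0.0135 to 0.890 for Crabp1 and from 0.0158 to 0.938 for Rarg. Where 1 library was left out, its replicate number kept a lone library, so the test of the replicate number is not quoted there. Estimated reads limit Aldh1a2, Aldh1a3, Rarb, KO-labelled Crabp1 and Crabp2 in replicate 2 most.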

Other observations

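Some retinoid genes under the filter, named here after their values were seen, had lines that lay apart at low levels. Dhrs9, a dehydrogenase that acts on retinol, had 0.914 ± 0.662 RPKM in MEF WT and 0.0605 ± 0.0630 in the KO-labelled line (SD, n = 3 each). Pmp2, a fatty acid carrier of myelin and a relative of the CRABP proteins, had 0.0278 ± 0.0245 RPKM in MEF WT and 0.705 ± 0.260 in the KO-labelled line. Hoxd4 had 0.110 ± 0.0154 and 0.0168 ± 0.0191 RPKM. None of the 3 was tested.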
